A study of Mus musculus with 8 samples.

Results

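The comparison described here is that of 4 mice given thiostrepton by intraperitoneal injection (I.P.) with 2 mice given DMSO, the solvent, which are 6 of the 8 mice of an RNA-seq series on tumor-associated macrophages (TAMs). The mice were taken by their labels, and no measured value was used to choose them, although earlier results of these data were known. The gene lists below were also written with those results known. All mice were male C57BL/6 animals of 8 to 10 weeks that carried subcutaneous tumors of B16F10, a mouse melanoma line. They were dosed on days 6 and 12 after the cells were implanted, and TAMs were sorted on day 18 as CD45+F4/80+CD11b+Gr-1- cells. The remaining 2 mice received the drug by injection next to the tumor (S.C.) and appear below only where their values were set beside those of the I.P. mice. The doses of the sequenced mice and the route of the DMSO were not given in the sources used here. Each library came from 1 mouse, so the spread given is that between mice.

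Thiostrepton is a thiopeptide antibiotic that is known as an inhibitor of the transcription factor FOXM1 and of the proteasome. TAMs are macrophages of the tumor, fed in part by CCR2-bearing monocytes from the blood, and in many tumors they carry an alternatively activated program that includes lectins such as the mannose receptor and Mgl2. When amino acids run short, protein folding fails or heme is lacking, kinases that act on the initiation factor eIF2 slow translation and raise ATF4, which switches on genes of amino acid supply, of glutathione turnover and of cell death. That program is called the integrated stress response. The comparison addresses how the drug, given away from the tumor, altered the transcriptome of these cells.

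Sequencing depth was even, at 14127506 to 17577466 counts per mouse, and 3 counts, taken as the floor of detection, equal 0.171 to 0.212 CPM, the counts scaled to library size. Values below are CPM scaled by trimmed mean of M values (TMM) over the 8 mice. Markers of the sorted cells were expressed in all 6 mice, which does not measure purity. Markers of other cell types were detected too, and their sums are given below. The 12 macrophage markers were all detected, and their summed level was 27700 to 31700 CPM in the DMSO mice and 28300 to 34500 CPM in the I.P. mice. Among the genes of the gate, Ptprc (CD45) was at 364 and 231 CPM in DMSO mice 1 and 2 and at 152, 237, 294 and 300 CPM in I.P. mice 1 to 4. Emr1, which encodes F4/80, was at 918 and 597 CPM against 316, 588, 641 and 711 CPM, and Itgam (CD11b) was at 199 and 255 CPM against 177, 142, 211 and 243 CPM. Cd68 was at 2700 and 2390 CPM in the DMSO mice and at 2840 to 3370 CPM in the I.P. mice.

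I.P. mouse 1 stood apart from the other I.P. mice in its whole profile. Over the genes tested, its log2 CPM correlated at 0.89 to 0.91 with those of I.P. mice 2 to 4, which correlated with each other at up to 0.969. These are correlations across genes, which are not independent replicates. I.P. mice 2 and 3 correlated with both DMSO mice at 0.964 to 0.977. The median gap between a gene's log2 CPM in mouse 1 and its level in the other I.P. mice was 0.56, against 0.303 for mice 2 and 3 and 0.399 for mouse 4. By Dixon's ratio of the CPM, not on a log scale, mouse 1 was an outlier of the 4 I.P. mice in 691 genes (5.68%). It was high in 491 of them and low in 200. Mice 2, 3 and 4 were outliers in 51, 113 and 199 genes, and they too were more often high, in 30, 89 and 161. The labels also give the mice running numbers, and that of I.P. mouse 1 precedes those of the S.C. mice, while those of I.P. mice 2 to 4 follow those of the DMSO mice. What the numbers record is not stated, and their part in the gap was not tested. The main counts and fold changes over DMSO are therefore given with mouse 1 and without it.

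Across the genome, the difference between I.P. and DMSO TAMs was small relative to the spread between mice. Differentially expressed genes (DEGs) were those that differed by 2-fold or more with P under 0.05 before adjustment, as the study defined them. By edgeR's quasi-likelihood test, 243 of 12174 genes were DEGs, with 186 upregulated (1.53% of the genes tested) and 57 downregulated (0.468%). An unadjusted P under 0.05 was reached by 418 genes (3.43%). With adjustment by the Benjamini-Hochberg method, 0 genes passed 0.05, and the smallest adjusted p was 0.751. DESeq2 called 26 genes at an adjusted p under 0.05, of which 19 were higher and 7 lower in I.P. TAMs. A single gene has a smallest exact permutation p of 0.133 with 4 mice against 2 (two-sided), so its values cannot reach 0.05 by that test. The counts also depended on single mice, with 76 upregulated DEGs and 141 genes at an unadjusted P under 0.05 without DMSO mouse 1, 282 upregulated DEGs without I.P. mouse 2 and 109 downregulated DEGs without I.P. mouse 3.

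Leaving out I.P. mouse 1 gave 197 DEGs among 12010 genes, 137 upregulated (1.14%) and 60 downregulated (0.5%), and again 0 genes with an adjusted p under 0.05 by edgeR, with 450 at an unadjusted P under 0.05 and a smallest adjusted p of 0.171. DESeq2 then called 33 genes, 21 of them among the 26 called with 4 mice. The DEGs in both lists numbered 152, which are 62.6% of the DEGs of 4 mice and 77.2% of those of mice 2 to 4, and 110 of them were upregulated and 42 downregulated. With mouse 1 out, the upregulated DEGs fell to 80 when I.P. mouse 4 was left out too and numbered 275 and 250 without DMSO mouse 2 and I.P. mouse 3, and the downregulated DEGs numbered 158 without I.P. mouse 3. Of the upregulated DEGs of 4 mice, 59.1% stayed DEGs without mouse 1 and 76 did not, against 73.7% and 15 of the downregulated. The 76 and 15 include genes that were not tested without mouse 1. All 4 I.P. mice were above both DMSO mice in 887 genes (7.29% of the genes tested) and below both in 838 (6.88%). Among the 243 DEGs, 209 had all 4 I.P. mice on one side. The median log2 fold change of all genes was 0.02 with 4 mice and 0.0027 without mouse 1, so the fold changes below are close to changes relative to the typical gene.

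**Figure D1:**
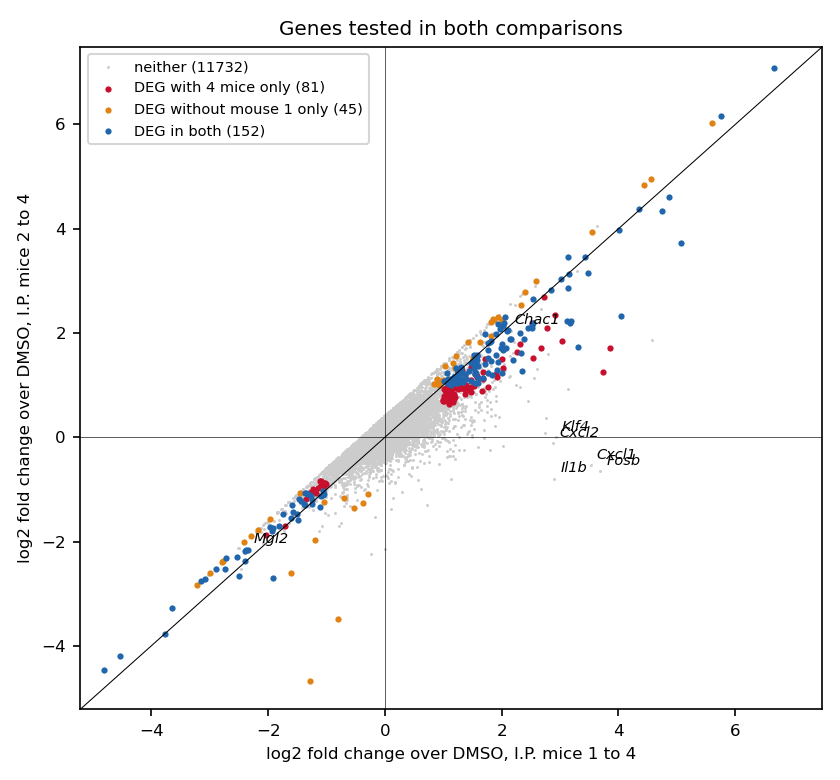
Log2 fold change over DMSO of each gene tested in both comparisons, with I.P. mice 1 to 4 on the x axis and I.P. mice 2 to 4 on the y axis; the diagonal marks equal values. The 152 genes that were DEGs in both (blue) lie along the diagonal, 81 were DEGs with 4 mice only (red) and 45 without mouse 1 only (orange), while Fosb, Klf4, Cxcl1, Cxcl2 and Il1b lie far to the right and near or below 0 on the y axis.

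The named genes were DEGs in both comparisons, had no overlap between the groups and averaged at least 5 CPM, and were taken in order of P. This pool held 88 genes, 68 upregulated and 20 downregulated, from which the first 10 of each direction are described by function together with their pathways. Their edgeR adjusted p values were 0.751 for Mgl2 and Ccr2 and 0.98 for the other 18 genes, so each is a call on the unadjusted P only. All 20 remained DEGs when I.P. mouse 1, 2 or 3 was left out, 18 without I.P. mouse 4 (not Dok2 and Olfm1), 18 without DMSO mouse 2 (not Olfm1 and F13a1) and 16 without DMSO mouse 1 (not Pck2, Dok2, Abca9 and Hspa1b). Where a single DMSO mouse was left, it was assumed to vary as the I.P. mice do.

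**Figure D2:**
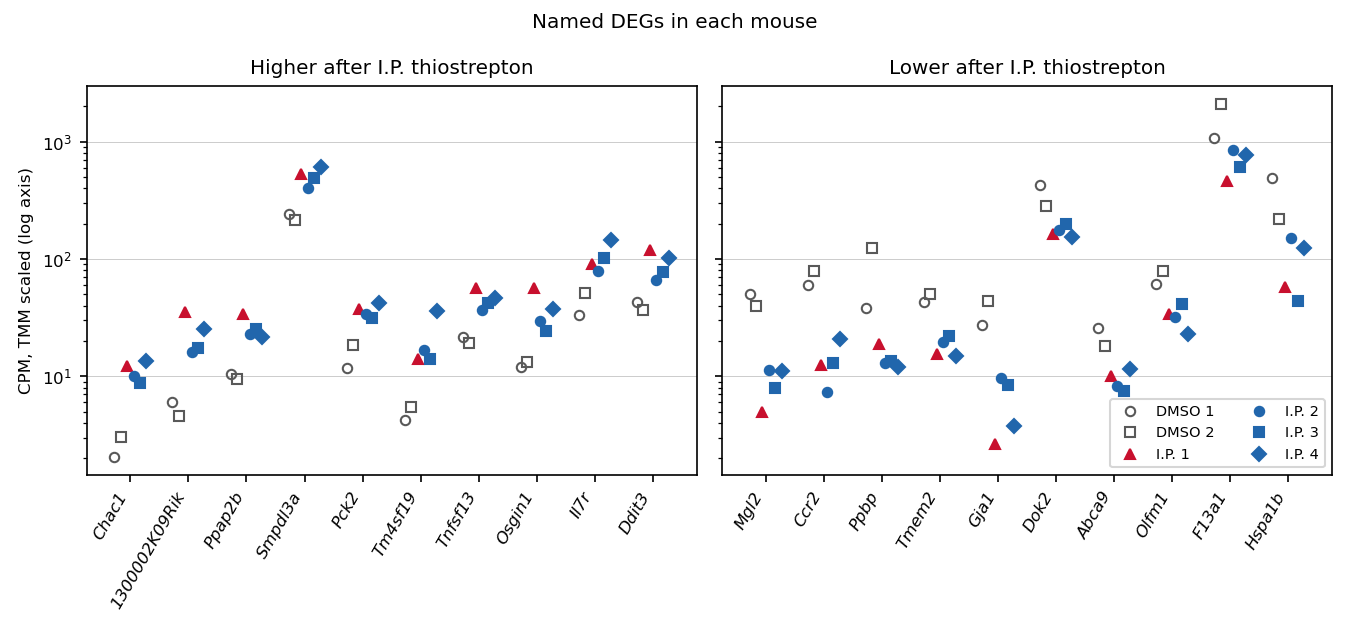
CPM on a log axis of the 10 upregulated (left) and 10 downregulated (right) named DEGs in each mouse; open grey symbols are the DMSO mice, the red triangle is I.P. mouse 1 and blue symbols are I.P. mice 2 to 4. Every I.P. mouse lies on the same side of both DMSO mice for each gene, which was a condition of the choice. I.P. mouse 1 is within the range of the other I.P. mice for genes such as Pck2, Il7r and Ccr2 and outside it for Mgl2 and Gja1.

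The leading upregulated genes included those of the integrated stress response. Of its 24 tested members, 8 were upregulated DEGs, where 1.53% of all genes were, and 0 were downregulated. All 4 I.P. mice were above both DMSO mice in 12 members, where this held for 7.29% of all genes. These shares, and 0.468% for downregulated DEGs, also stand beside the list counts below. The median log2 fold change was 0.87 with 4 mice and 0.64 without mouse 1. Without mouse 1, 5 members were DEGs, namely Chac1, Ddit3, Asns, Trib3 and Sesn2. The count was also 5 without either DMSO mouse, and it was 8 to 11 without each of I.P. mice 2 to 4. The summed level of the list was 2350 and 2130 CPM in the DMSO mice and 5590, 2720, 2590 and 3730 CPM in I.P. mice 1 to 4.

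ATF4 binds with C/EBP partners to a composite site. The promoters of 4 of the 8 DEGs of this list held the letters TGATGNAA, searched on both strands from 250 bases before to 50 bases after the transcript start, in any of a gene's RefSeq windows. They are shown to place these letters in the genes concerned, with the matched letters in capitals, each 5′ to 3′ on the gene's strand and taken from RefSeq for GRCm38.p6. The promoters are those of Chac1 (chr2:119350992-119351291, plus strand), Asns (chr6:7693160-7693459, minus strand), Trib3 (chr2:152344011-152344310, minus strand) and Slc7a11 (chr3:50443564-50443863, minus strand).
Chac1: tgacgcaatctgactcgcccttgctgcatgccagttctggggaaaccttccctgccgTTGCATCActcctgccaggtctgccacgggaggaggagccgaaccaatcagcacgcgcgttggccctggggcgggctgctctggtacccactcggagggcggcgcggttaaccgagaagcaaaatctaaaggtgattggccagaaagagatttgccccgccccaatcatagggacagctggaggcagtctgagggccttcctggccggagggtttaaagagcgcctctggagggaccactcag
Asns: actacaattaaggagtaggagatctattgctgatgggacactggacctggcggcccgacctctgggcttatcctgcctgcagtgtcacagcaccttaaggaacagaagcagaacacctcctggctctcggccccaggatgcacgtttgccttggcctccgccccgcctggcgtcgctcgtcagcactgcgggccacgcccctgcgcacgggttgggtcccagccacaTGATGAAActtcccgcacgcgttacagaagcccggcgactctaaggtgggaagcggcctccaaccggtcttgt
Trib3: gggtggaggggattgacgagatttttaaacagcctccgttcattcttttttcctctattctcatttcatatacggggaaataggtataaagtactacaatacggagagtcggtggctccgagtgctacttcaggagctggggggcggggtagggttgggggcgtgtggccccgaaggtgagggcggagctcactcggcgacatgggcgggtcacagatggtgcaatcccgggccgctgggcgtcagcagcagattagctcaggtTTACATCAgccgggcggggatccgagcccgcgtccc
Slc7a11: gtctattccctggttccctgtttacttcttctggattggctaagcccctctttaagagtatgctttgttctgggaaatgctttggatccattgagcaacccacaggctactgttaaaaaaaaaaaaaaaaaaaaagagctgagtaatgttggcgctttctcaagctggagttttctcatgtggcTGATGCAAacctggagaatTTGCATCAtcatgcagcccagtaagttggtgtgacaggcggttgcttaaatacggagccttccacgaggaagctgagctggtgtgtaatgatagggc
The first matched base is at position -193 from the transcript start in Chac1, at -23 in Asns and at 14 in Trib3. Slc7a11 has a pair of matches on opposite strands, at -66 and -47 from a transcript start that lies inside the annotated gene (chromosome 3, 50364936 to 50499087). The letters were found in 7 of 20 list members with a promoter window (35%), in 13 of 143 upregulated DEGs (9.09%), in 0 of 44 downregulated DEGs and in 280 of 9743 tested genes (2.87%). The list was made of ATF4 targets, and its 8 DEGs are among the upregulated DEGs, so these shares are a description only. A match describes the letters only and no binding was measured.

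Chac1 degrades glutathione and is a target of ATF4 and CHOP. It was at 2.04 and 3.06 CPM in the DMSO mice and at 12.3, 9.97, 8.74 and 13.4 CPM in I.P. mice 1 to 4. All 4 I.P. mice lay within a narrow range well above the DMSO mice, and mouse 1 was not the highest. Its log2 fold change, given here and below from edgeR with its standard error, was 2.11 ± 0.39 with 4 mice and 2.05 ± 0.37 without mouse 1. DESeq2 gave adjusted p values of 0.000912 and 0.000588.

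Ddit3 encodes CHOP, the factor that couples unresolved stress to cell death. Its level was 42.8 and 36.6 CPM in the DMSO mice against 119, 65.8, 77.7 and 101 CPM in the I.P. mice, a log2 fold change of 1.19 ± 0.29, and 1.03 ± 0.24 without mouse 1. Trib3, a pseudokinase induced by ATF4 and CHOP, was at 20.6 and 12.9 CPM against 84.8, 36.8, 32.6 and 76.9 CPM (log2 fold change 1.77 ± 0.47, and 1.53 ± 0.40 without mouse 1). For both genes I.P. mice 1 and 4 were the higher pair and mice 2 and 3 the lower pair.

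Asns, which makes asparagine from aspartate and glutamine, showed the same order more strongly. It was at 25.2 and 24 CPM in the DMSO mice and at 138, 76.4, 36.9 and 145 CPM in the I.P. mice, so that mouse 3 lay nearest to the DMSO mice. The log2 fold change was 2.0 ± 0.53 with 4 mice and 1.80 ± 0.49 without mouse 1. Pck2, the mitochondrial phosphoenolpyruvate carboxykinase, was more even between mice, at 11.6 and 18.4 CPM against 37.5, 33.9, 31.4 and 41.8 CPM, with a log2 fold change of 1.26 ± 0.29 and 1.24 ± 0.27 without mouse 1.

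The other 4 DEGs of the list, named after their values were seen, were higher in mouse 1 than in the other I.P. mice. Atf4 itself was at 72.9 and 141 CPM in the DMSO mice and at 409, 176, 232 and 203 CPM in the I.P. mice, and its log2 fold change of 1.24 ± 0.42 became 0.92 ± 0.31 without mouse 1, under the 2-fold limit. Gdf15, a stress-induced secreted cytokine, was at 130 and 123 CPM against 705, 276, 216 and 261 CPM, and its log2 fold change went from 1.52 ± 0.49 to 0.98 ± 0.20, with no overlap between the groups in either case. Slc7a11, the cystine importer, went from 1.67 ± 0.67 to 0.89 ± 0.30. Sesn2 remained a DEG, at 1.33 ± 0.44 and 1.12 ± 0.39.

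Serine synthesis and one-carbon enzymes, which are in part ATF4 targets, held 1 DEG of 15 tested with 4 mice and 2 without mouse 1, with medians of 0.33 and 0.32. Without DMSO mouse 1 it held 0, and the median was 0.57. Phgdh, the first enzyme of serine synthesis, was at 7.08 and 17 CPM in the DMSO mice and at 117, 42.3, 18.6 and 75.5 CPM in the I.P. mice. Its value in I.P. mouse 3 was just above that of DMSO mouse 2, and the log2 fold change was 2.38 ± 0.73, or 1.89 ± 0.59 without mouse 1. Psph, which completes serine synthesis, was at 12.9 and 11.7 CPM against 24.1, 20.3, 18 and 19.9 CPM, a log2 fold change of 0.74 ± 0.25 that stayed under 2-fold (0.65 ± 0.22 without mouse 1). Mthfd2, the mitochondrial folate enzyme, was at 41.9 and 42.7 CPM against 56.2, 77.8, 63.1 and 125 CPM, where mouse 1 was the lowest I.P. mouse, and it was a DEG only without mouse 1 (log2 fold change 0.92 ± 0.34 with 4 mice and 1.05 ± 0.29 without). The 20 cytosolic aminoacyl-tRNA synthetases, many of them known ATF4 targets, held 0 DEGs, with medians of -0.11 and 0.11.

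**Figure D3:**
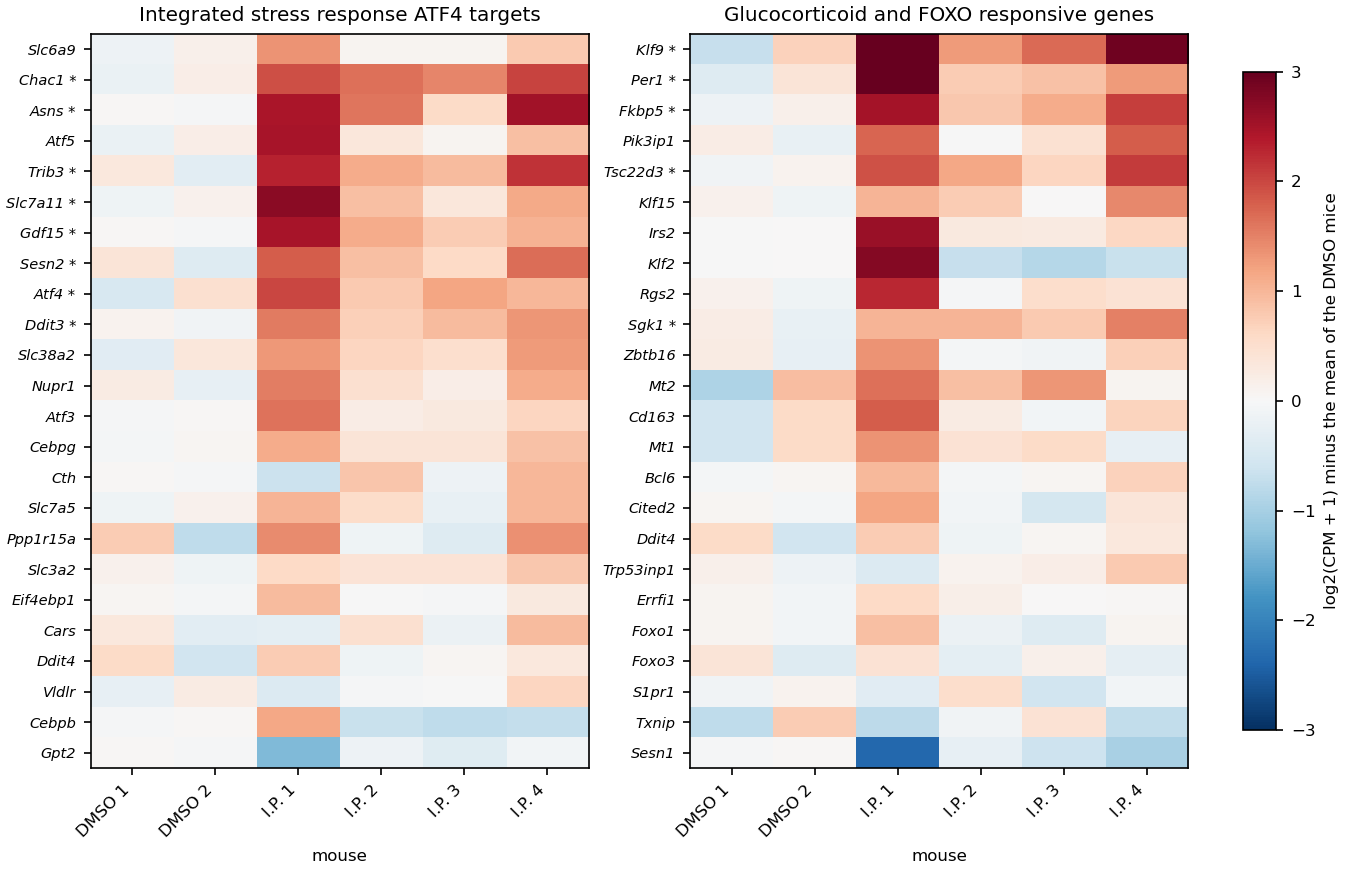
Difference of log2(CPM + 1) from the mean of the DMSO mice for the 24 tested members of the integrated stress response list (left) and of the glucocorticoid and FOXO list (right), in each mouse; rows are ordered by log2 fold change, asterisks mark DEGs with 4 mice, and differences above 3 are drawn in the colour of 3. Columns of I.P. mice 1 and 4 are the darkest, and the rows of Chac1, Ddit3, Tsc22d3 and Sgk1 are above the DMSO mice in all 4 I.P. mice.

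NRF2 is the factor that answers oxidants. Of 25 of its tested targets, 3 were upregulated DEGs, where 1.53% of all genes were, and 0 were downregulated, with a median of 0.35. Without mouse 1 the median was 0.30, and 1 member, Osgin1, was a DEG. With 4 mice 20 of 25 members had a positive log2 fold change and 5 a negative one, against 6306 positive of all 12174 genes. Without mouse 1, 25 of 25 were positive, against 6049 of all 12010 genes. The median was 0.23 without DMSO mouse 1 and 0.68 without DMSO mouse 2. Osgin1, an oxidative stress response gene, was at 12.1 and 13.2 CPM in the DMSO mice and at 56.6, 29.5, 24.2 and 37.5 CPM in the I.P. mice. The groups were well separated, and the log2 fold change was 1.54 ± 0.38, or 1.26 ± 0.25 without mouse 1. Gclm, the regulatory subunit of glutathione synthesis, was at 56 and 92.2 CPM against 146, 132, 102 and 113 CPM, and Gsr, glutathione reductase, at 52.4 and 64.3 CPM against 121, 90.7, 72.1 and 97 CPM. Both stayed under 2-fold, with log2 fold changes of 0.73 ± 0.28 and 0.70 ± 0.26, and 0.63 ± 0.26 and 0.56 ± 0.22 without mouse 1.

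Autophagy receptors overlapped with this group through Sqstm1, which encodes p62 and is also an NRF2 target. It was at 617 and 651 CPM in the DMSO mice and at 1790, 1060, 989 and 1500 CPM in the I.P. mice, a log2 fold change of 1.07 ± 0.30 that fell short of 2-fold without mouse 1 (0.89 ± 0.24). Optn, another receptor of selective autophagy, was at 10.1 and 13 CPM against 37.5, 26.2, 15.8 and 53.2 CPM, a log2 fold change of 1.51 ± 0.47 and 1.44 ± 0.47 without mouse 1. In all, 3 of 21 tested members of the autophagy list were upregulated DEGs and 0 downregulated, against 1 without mouse 1, with medians of 0.20 and 0.18. Without DMSO mouse 1 there was also 1, and Optn was then not a DEG.

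The other arms of protein quality control did not show upregulated DEGs. Among 20 cytosolic heat shock proteins, 0 were upregulated and 2 were downregulated DEGs, where 0.468% of all genes were downregulated. Both were also DEGs without mouse 1. A negative log2 fold change was found in 17 of the 20, against 5868 of all 12174 genes. Without DMSO mouse 1 there were 0 DEGs in this list. Hspa1b, an inducible HSP70, was at 487 and 219 CPM in the DMSO mice and at 57.5, 151, 44 and 125 CPM in the I.P. mice (log2 fold change -1.91 ± 0.50, and -1.73 ± 0.50 without mouse 1). Hspa1a was at 375 and 224 CPM against 113, 172, 60.5 and 162 CPM (-1.25 ± 0.40, and -1.20 ± 0.42 without mouse 1). The DMSO mice differed from each other by more than the nearest mice of the 2 groups, and the genes are near-identical copies whose reads could not be divided with certainty. The 34 proteasome subunits held 0 DEGs and had medians of -0.19 with 4 mice and -0.16 without mouse 1, and 22 endoplasmic reticulum chaperones and unfolded protein response genes held 0 DEGs, with medians of -0.12 and -0.11.

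Genes that respond to glucocorticoids and FOXO factors formed a further group. In it, 5 of 24 tested members were upregulated DEGs, where 1.53% of all genes were, and 0 were downregulated. All 5 were also DEGs without mouse 1, although the median of the list went from 0.79 to 0.31. Without DMSO mouse 1, Fkbp5, Klf9 and Per1 were no longer DEGs. Per1 was not a DEG without DMSO mouse 2 either, and Sgk1 fell short of 2-fold without DMSO mouse 2 or I.P. mouse 4. Sgk1, a kinase induced by glucocorticoids, was at 183 and 136 CPM in the DMSO mice and at 320, 319, 273 and 449 CPM in the I.P. mice. Mouse 1 was in the middle of the I.P. mice, and the log2 fold change was 1.08 ± 0.27, or 1.11 ± 0.27 without it. Sgk1 was the 1 gene of 21 with a promoter window in this list that held the glucocorticoid receptor site, searched on both strands as AGNACA, any 3 bases and TGTNCT, which 3 of 9743 tested genes held (0.0308%). It is shown for this reason, with the match in capitals at -189 from the transcript start of this window (RefSeq, GRCm38.p6, chr10:21993640-21993939, plus strand). This is one of several RefSeq transcript starts of Sgk1 and lies inside the annotated gene (chromosome 10, 21882184 to 21999903).
Sgk1: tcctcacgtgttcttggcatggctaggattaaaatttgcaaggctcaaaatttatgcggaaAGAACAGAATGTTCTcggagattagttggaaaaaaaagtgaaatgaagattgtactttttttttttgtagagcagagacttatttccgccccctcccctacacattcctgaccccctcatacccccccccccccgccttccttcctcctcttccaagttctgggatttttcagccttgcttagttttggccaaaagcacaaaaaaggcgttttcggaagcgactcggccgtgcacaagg
Here too no binding was measured.

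Tsc22d3, which encodes the anti-inflammatory protein GILZ, was at 141 and 165 CPM in the DMSO mice and at 577, 342, 241 and 657 CPM in the I.P. mice (log2 fold change 1.56 ± 0.41, and 1.42 ± 0.39 without mouse 1). Fkbp5, a co-chaperone of the glucocorticoid receptor, was at 15 and 19.1 CPM against 99.9, 30.3, 37.7 and 73.9 CPM (1.82 ± 0.50 and 1.46 ± 0.38). Klf9 was at 1.91 and 6.47 CPM against 94.4, 10.3, 14.1 and 34.1 CPM, and the wide spread left a standard error of 1.01 on its log2 fold change of 3.17 (2.19 ± 0.64 without mouse 1). For these 3 genes, I.P. mice 1 and 4 again exceeded mice 2 and 3. Per1, a clock gene that glucocorticoids also induce, was at 1.02 and 2.43 CPM against 22.8, 3.49, 3.81 and 5.4 CPM, with mouse 1 an outlier, and its log2 fold change went from 2.34 ± 0.92 to 1.27 ± 0.53. It was the 1 DEG among 18 tested clock genes, with and without mouse 1, but not a DEG with either DMSO mouse left out.

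Lists of lipid handling and of the lysosome held 0 to 3 DEGs each. In the list of lipid-associated macrophage genes, 3 of 20 were upregulated DEGs, where 1.53% of all genes were, and 0 were downregulated. All I.P. mice were above both DMSO mice in 7 of the 20, where this held for 7.29% of all genes. The median was 0.34 with 4 mice, 0.41 without mouse 1 and 0.54 without DMSO mouse 2. Gpnmb was the 1 DEG left without mouse 1. Gpnmb, a lysosomal membrane glycoprotein of lipid-laden macrophages, was at 1800 and 1590 CPM in the DMSO mice and at 5310, 4860, 2480 and 7740 CPM in the I.P. mice (log2 fold change 1.58 ± 0.42, and 1.56 ± 0.43 without mouse 1). Apoe, among the most abundant mRNAs of these cells, was at 9540 and 6680 CPM against 37800, 14200, 13500 and 20200 CPM, and the log2 fold change of 1.39 ± 0.46 became 0.97 ± 0.28 without mouse 1. Trem2, the receptor that senses lipids on this kind of macrophage, was at 393 and 424 CPM against 773, 602, 623 and 590 CPM, a separation between all mice at a log2 fold change of 0.66 ± 0.23 (0.56 ± 0.19 without mouse 1). Gpnmb is also expressed by melanoma cells. The 13 melanocyte markers of the list used here, which leaves out Gpnmb, summed to 665 and 755 CPM in the DMSO mice and to 569, 1100, 507 and 1900 CPM in the I.P. mice and held 0 DEGs. The part of tumor cell RNA in the level of Gpnmb was not tested.

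Of 40 lysosomal hydrolases and membrane proteins, 16 had all 4 I.P. mice above both DMSO mice (40% against 7.29% of all genes) and 0 had all below. The medians were 0.31 and 0.32 with and without mouse 1, and only Acp5 (up) and Ctsc (down) were DEGs, neither of them without mouse 1. Atp6v0d2, a subunit of the acidifying proton pump, was at 245 and 224 CPM in the DMSO mice and at 446, 527, 363 and 505 CPM in the I.P. mice, a log2 fold change of 0.97 ± 0.24 that lay just under the 2-fold limit (0.98 ± 0.23 without mouse 1). Naglu, which degrades heparan sulfate, was at 138 and 131 CPM against 264, 215, 156 and 271 CPM (0.75 ± 0.27, and 0.66 ± 0.25 without mouse 1). Acp5, the tartrate-resistant phosphatase, was at 92.7 and 50.3 CPM against 281, 116, 176 and 123 CPM. Smpdl3a, a secreted phosphodiesterase related to acid sphingomyelinase, was at 242 and 216 CPM against 533, 403, 492 and 605 CPM. Its groups were far apart relative to the spread within each, with a log2 fold change of 1.14 ± 0.24 and 1.12 ± 0.23 without mouse 1. Sterol synthesis genes and targets of the liver X receptors (LXR) held 0 DEGs of 26, with medians of 0.06 and 0.10 with and without mouse 1. The highest ranked of them were Mylip (0.91 ± 0.27, and 0.84 ± 0.24 without mouse 1), which degrades the LDL receptor, and Nr1h3 (0.84 ± 0.30 and 0.92 ± 0.28), which encodes LXR alpha.

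The other named upregulated genes belong to none of these lists. Pck2 and Smpdl3a, described above beside the stress response and lysosomal lists, are not members of them either. Ppap2b, now called Plpp3, is a lipid phosphate phosphatase that breaks down lysophosphatidic acid, and was at 10.5 and 9.47 CPM in the DMSO mice and at 33.7, 23.1, 25.2 and 21.8 CPM in the I.P. mice. Tnfsf13 encodes the cytokine APRIL, which sustains B and plasma cells, and was at 21.5 and 19.3 CPM against 56.6, 36.7, 42.3 and 46.4 CPM. The log2 fold changes were 1.37 ± 0.29 and 1.15 ± 0.27, and 1.22 ± 0.23 and 1.03 ± 0.21 without mouse 1. Il7r, a receptor chain for interleukin 7 and TSLP, was at 33.2 and 51.2 CPM against 90.9, 79.5, 103 and 144 CPM (1.30 ± 0.32, and 1.35 ± 0.31 without mouse 1). T and NK cell markers summed to 32.6 and 10.1 CPM in the DMSO mice and to 4.61 to 22.8 CPM in the I.P. mice, and their part in the level of Il7r was not tested. Tm4sf19, a membrane protein of the L6 family, was at 4.22 and 5.43 CPM against 14, 16.8, 14.1 and 35.8 CPM, with mouse 4 an outlier, and 1300002K09Rik, now called Stra6l, a membrane receptor for retinol-binding protein, was at 5.99 and 4.56 CPM against 35.4, 16, 17.3 and 25.3 CPM. Their log2 fold changes were 2.05 ± 0.47 and 2.15 ± 0.41, and 2.18 ± 0.44 and 1.88 ± 0.30 without mouse 1.

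Mgl2 and Ccr2 led the downregulated genes. Mgl2, a galactose-binding lectin of alternatively activated macrophages and of some dendritic cells (chromosome 11, 70130125 to 70137542, GRCm38.p6), was at 49.9 and 39.8 CPM in the DMSO mice and at 4.99, 11.3, 7.96 and 11 CPM in the I.P. mice. Leaving out mouse 1, the lowest of them, lowered the standard error from 0.34 to 0.24, at log2 fold changes of -2.35 and -2.16. Dendritic cell markers, a list of 17 that includes Mgl2, summed to 130 and 105 CPM in the DMSO mice and to 65.2 to 68.2 CPM in the I.P. mice. Mgl2 itself made up 49.9 and 39.8 CPM of the DMSO sums, so the lower sum is in part its own fall. The part of dendritic cells in the result was not tested. In sorted bulk samples, fewer cells of a type and less RNA per cell cannot be told apart. Ccr2, the receptor that brings monocytes out of the marrow (chromosome 9, 124101918 to 124109140), was at 60.1 and 79.6 CPM against 12.6, 7.34, 13 and 20.7 CPM, with log2 fold changes of -2.39 ± 0.36 and -2.36 ± 0.37. Monocyte markers, 15 genes including Ccr2, summed to 196 and 291 CPM in the DMSO mice and to 775, 100, 271 and 326 CPM in the I.P. mice, and Ccr2 was the 1 DEG among the 13 tested.

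The ligands of CCR2 were lower as well, within a list of 11 tested CC chemokines that held 2 downregulated and 0 upregulated DEGs and whose median was -0.67 with 4 mice and -0.73 without mouse 1. Without DMSO mouse 2 the median was -0.05, with 0 DEGs. Ccl2 was at 2570 and 2720 CPM in the DMSO mice and at 1790, 1710, 1560 and 1210 CPM in the I.P. mice, without overlap but under 2-fold (-0.76 ± 0.24, and -0.83 ± 0.23 without mouse 1). Ccl7 and Ccl12, the other ligands, had log2 fold changes of -0.93 ± 0.22 and -1.44 ± 0.42, and of -0.94 ± 0.21 and -1.23 ± 0.35 without mouse 1, the latter a DEG in both. Ccl24, an eosinophil attractant of alternative activation, was at 3.88 and 31.8 CPM against 10.6, 2.51, 3.31 and 2.52 CPM. The groups overlapped through DMSO mouse 1, and without DMSO mouse 2 the log2 fold change was 0.29. It was also no DEG without I.P. mouse 2, 3 or 4. Cx3cr1, the fractalkine receptor, was at 106 and 51.6 CPM against 2.72, 51.3, 28.4 and 32.5 CPM, and it was a DEG only without mouse 1 (-1.07 ± 0.35), since the very low level in mouse 1 widened the error with 4 mice (-1.45 ± 0.79).

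Ppbp, a CXC chemokine that is abundant in platelets, was at 38.1 and 123 CPM in the DMSO mice and at 19, 12.9, 13.4 and 12.1 CPM in the I.P. mice (-2.50 ± 0.42, and -2.67 ± 0.43 without mouse 1). It was the 1 DEG of 11 tested CXC chemokines with 4 mice, and without mouse 1 Cxcl3 (-2.60) was another. Pf4, the other chemokine of platelets, was at 853 and 2300 CPM against 2280, 1250, 1400 and 653 CPM, so its groups overlapped fully. The 12 platelet markers summed to 894 and 2430 CPM in the DMSO mice and to 668 to 2310 CPM in the I.P. mice. Pf4 made up most of the sum in each mouse. Hemoglobin mRNAs were highest in DMSO mouse 2, and the groups overlapped. Beta-s, a beta globin, was at 32.4 and 189 CPM in the DMSO mice and at 2.15, 38.2, 18.2 and 1.14 CPM in the I.P. mice, with a log2 fold change of -2.89 ± 1.16 that was a DEG with and without mouse 1 but not without DMSO mouse 2, I.P. mouse 3 or I.P. mouse 4. The listed erythroid markers summed to 114 and 590 CPM against 5.5, 128, 46.4 and 4.2 CPM. The part of red cell RNA in the results was not tested.

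Other named downregulated genes, like all named DEGs, were chosen to have no overlap between the groups and to be DEGs without mouse 1. Gja1, which encodes the gap junction protein connexin 43, was at 27.2 and 44 CPM in the DMSO mice and at 2.65, 9.6, 8.46 and 3.78 CPM in the I.P. mice (-2.54 ± 0.50, and -2.29 ± 0.40 without mouse 1). Dok2, an adaptor that restrains tyrosine kinase signaling in myeloid cells, was at 429 and 285 CPM against 163, 175, 197 and 153 CPM (-1.06 ± 0.24, and -1.03 ± 0.24 without mouse 1). Tmem2, now called Cemip2, a cell surface hyaluronidase, was at 42.7 and 49.9 CPM against 15.6, 19.5, 22 and 14.8 CPM (-1.37 ± 0.26 and -1.30 ± 0.24). The transporter gene Abca9 was at 25.9 and 18.2 CPM against 10.1, 8.32, 7.51 and 11.6 CPM (-1.24 ± 0.29 and -1.28 ± 0.27). Olfm1, a secreted glycoprotein, was at 60.7 and 78.9 CPM against 33.9, 32.2, 41.4 and 22.9 CPM (-1.10 ± 0.28 and -1.12 ± 0.28).

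F13a1, which encodes the A subunit of coagulation factor XIII and is a gene of resident and alternatively activated macrophages, was at 1080 and 2110 CPM in the DMSO mice and at 458, 841, 607 and 763 CPM in the I.P. mice (-1.26 ± 0.33, and -1.12 ± 0.30 without mouse 1). In the resident macrophage list, 2 of 17 tested genes were downregulated DEGs, F13a1 and Lyve1, and 1, Vsig4, was upregulated. Without mouse 1 these were DEGs as well, and so was Cd209f (-2.01). F13a1 and Lyve1 were no longer DEGs without DMSO mouse 2, nor Vsig4 without DMSO mouse 1, and the median of -0.19 became 0.22 without DMSO mouse 2. Lyve1, a hyaluronan receptor, was at 16.6 and 82.1 CPM against 10.8, 17.1, 8.91 and 20 CPM, with DMSO mouse 1 inside the range of the I.P. mice. Vsig4, a complement receptor, was at 0.749 and 4.04 CPM against 7.77, 10.7, 7.34 and 8.22 CPM (1.81 ± 0.63, and 1.84 ± 0.62 without mouse 1), so that genes of the same list differed in direction. Mertk, the receptor for engulfing dying cells, was at 30.4 and 42.3 CPM against 52.3, 71, 82.9 and 77 CPM, with log2 fold changes of 0.96 ± 0.28 and, without mouse 1, 1.08 ± 0.23.

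Activation markers of macrophages did not move as a group. Among 17 alternative activation genes, 2 were downregulated DEGs, Mgl2 and Ccl24, and 0 were upregulated, and the median was 0.10 with 4 mice and -0.38 without mouse 1, a change of sign. It was -0.46 and -0.10 without DMSO mice 1 and 2 and 0.07 to 0.25 without each of I.P. mice 2 to 4. Il4ra, the receptor of interleukin 4, was at 401 and 377 CPM in the DMSO mice and at 260, 243, 269 and 208 CPM in the I.P. mice (-0.67 ± 0.21, and -0.70 ± 0.20 without mouse 1), and Mrc1, the mannose receptor, at 619 and 907 CPM against 544, 479, 538 and 508 CPM (-0.57 ± 0.23 and -0.59 ± 0.23). Both were separated between the groups and under 2-fold. With 4 mice, 9 of the 17 had a positive log2 fold change and 8 a negative one. Arg1, Retnla, Chi3l3 and Cd163 were not DEGs. Arg1 ranged from 173 to 830 CPM in the I.P. mice, against 516 and 872 CPM in the DMSO mice. Chi3l3 was higher, at 4.09 and 26.2 CPM against 287, 10.5, 21.1 and 109 CPM (2.80 ± 1.36, and 1.59 ± 1.02 without mouse 1). Cd163 had log2 fold changes of 0.75 ± 0.56 and 0.19 ± 0.36. Retnla had one of 0.29 ± 1.38 and was not tested without mouse 1. Of 16 classical activation genes, 1 was an upregulated DEG, Il1a, at 58.4 and 27.3 CPM against 118, 75.9, 57 and 127 CPM, with a small overlap between the groups and no DEG call without DMSO mouse 2 or I.P. mouse 4. Nos2 had a log2 fold change of -0.57 ± 0.69, Cd80 one of -0.64 ± 0.45 and Cd86 one of -0.33 ± 0.35, none past the test. The same was true of the growth factors Vegfa (0.35 ± 0.46) and Tgfb1 (0.13 ± 0.53). Without mouse 1 the log2 fold changes were -0.57 for Nos2, -0.63 for Cd80, -0.38 for Cd86, -0.061 for Vegfa and -0.076 for Tgfb1, and again 0 of the 5 were DEGs.

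The 11 tested genes of MHC class II presentation had the lowest median of all lists of macrophage functions, at -0.85 with 4 mice and -0.79 without mouse 1, yet held 0 DEGs. Cd74, the invariant chain, was at 3870 and 766 CPM in the DMSO mice and at 686, 255, 1620 and 476 CPM in the I.P. mice, and H2-Ab1 was at 1980 and 377 CPM against 516, 145, 969 and 272 CPM. The DMSO mice thus spanned most of the range, and the median of the list was 0.43 without DMSO mouse 1 and -1.40 without DMSO mouse 2, when 3 genes were downregulated DEGs. It was -1.37 without I.P. mouse 3, with 4 such DEGs. H2-Q8, a nonclassical class I gene with close paralogs, was listed at 0 and 1.44 CPM in the DMSO mice and at 12.5, 4.22, 24 and 7.74 CPM in the I.P. mice, and its assignment among the paralogs is uncertain.

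Genes of prostaglandin and leukotriene signaling changed in both directions, with 2 upregulated and 2 downregulated DEGs of 22 tested. Without mouse 1 there were 3 and 1 of 21, with Ptgds (1.10) added and Hpgd lost. Without DMSO mouse 1 the upregulated Ptger2 and Pla2g7 remained DEGs, and the downregulated Cysltr1 and Hpgd did not. Without DMSO mouse 2, Cysltr1 and Hpgd were again not DEGs, and Pla2g7 fell short of 2-fold, at a log2 fold change of 0.93. Ptger2, a prostaglandin E2 receptor, was at 6.4 and 7.91 CPM in the DMSO mice and at 18.3, 12.8, 14.4 and 23 CPM in the I.P. mice. Pla2g7, which degrades platelet-activating factor, was at 328 and 220 CPM against 797, 390, 593 and 727 CPM (1.19 ± 0.34, and 1.05 ± 0.31 without mouse 1). Cysltr1, a cysteinyl leukotriene receptor, was at 98.5 and 91.3 CPM against 17.9, 55.7, 54.3 and 24.4 CPM (-1.32 ± 0.45, and -1.08 ± 0.34 without mouse 1), and Hpgd, which inactivates prostaglandins, had a log2 fold change of -1.18 ± 0.50 that was not a DEG without mouse 1. Spic, the factor of heme-recycling macrophages, was at 13 and 13 CPM against 33.5, 24, 57 and 13.9 CPM (1.31 ± 0.53, and 1.29 ± 0.54 without mouse 1), and C2, a complement protease, had a log2 fold change of 1.18 ± 0.50, both DEGs with and without mouse 1 but not with either DMSO mouse left out.

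FOXM1 itself was not a DEG. Foxm1 was at 15.3 and 21.2 CPM in the DMSO mice and at 7.27, 14, 14.8 and 15.8 CPM in the I.P. mice (-0.50 ± 0.35, and -0.31 ± 0.24 without mouse 1), so that I.P. mice 2 to 4 lay beside DMSO mouse 1. Of 30 FOXM1 and G2/M targets, 30 had a negative log2 fold change, against 5868 of all 12174 genes, and 0 were DEGs. All I.P. mice were below both DMSO mice in 11 of the 30, where this held for 6.88% of all genes. The median was -0.62 with 4 mice and -0.33 without mouse 1. The summed level of these genes was 2300 and 2130 CPM in the DMSO mice and 630, 2000, 1980 and 1300 CPM in the I.P. mice, so mouse 1 was far below the rest. DNA replication genes had the same order, with medians of -0.51 and -0.22. Aurka, the mitotic kinase, was at 63.9 and 49 CPM against 16.5, 46.1, 39.3 and 32.5 CPM (-0.75 ± 0.38, and -0.52 ± 0.23 without mouse 1).

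**Figure D4:**
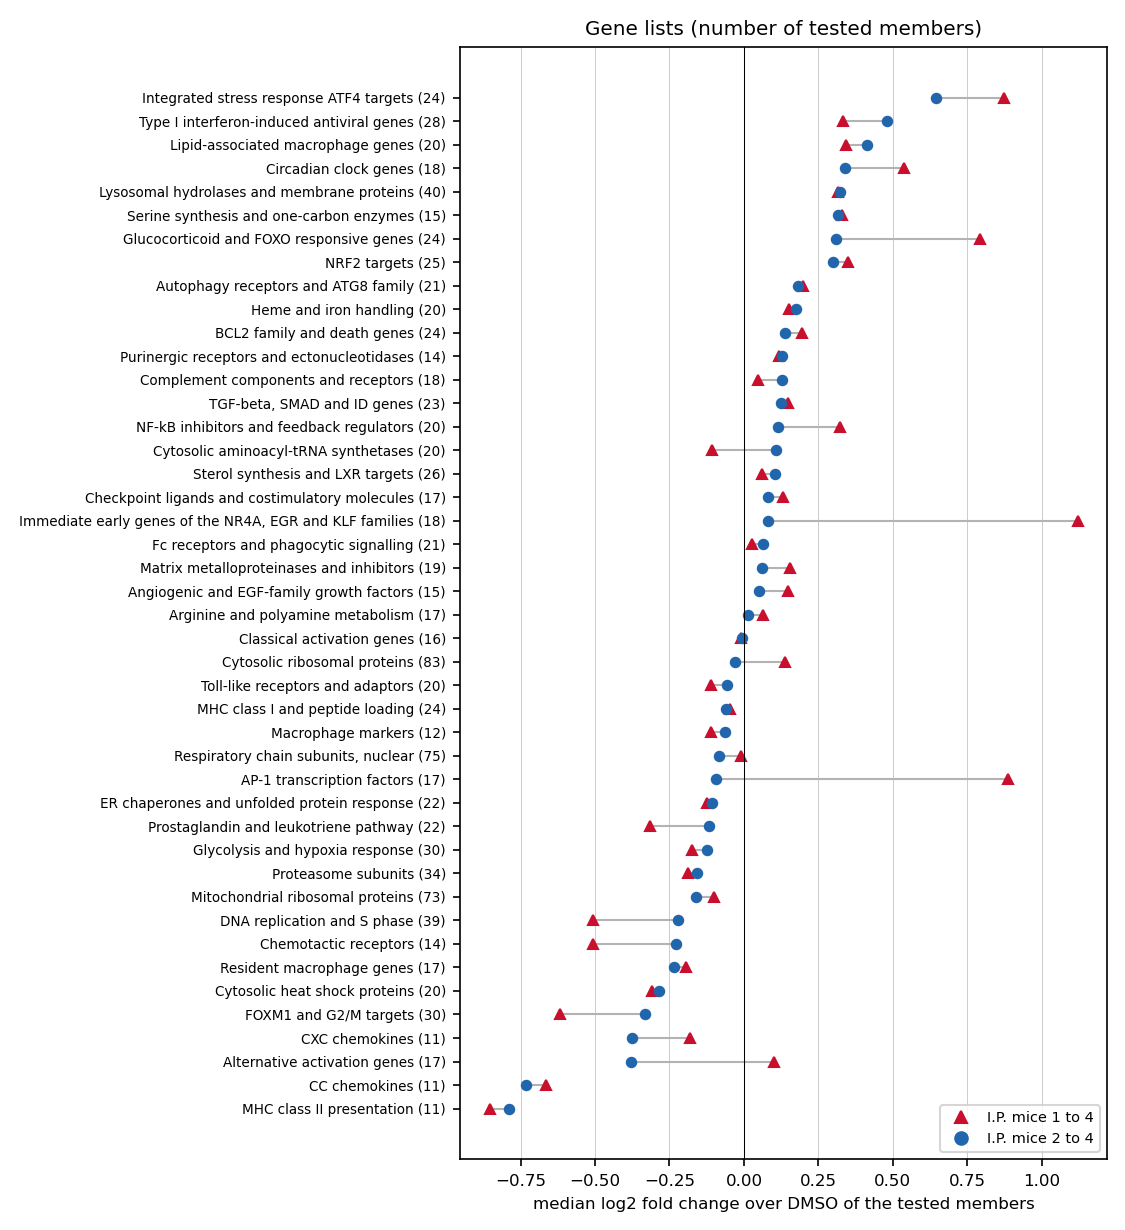
Median log2 fold change over DMSO of the tested members of each list of macrophage and cell functions (number of tested members in parentheses), with all 4 I.P. mice (red triangles) and without I.P. mouse 1 (blue circles), ordered by the latter. The integrated stress response list is highest without mouse 1 at 0.64 and MHC class II lowest at -0.79, and the immediate early and AP-1 lists move from 1.12 to 0.08 and from 0.89 to -0.09.

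Immediate early genes depended on mouse 1. Of 18 tested immediate early genes of the NR4A, EGR and KLF families, 0 were DEGs with or without mouse 1, and the median went from 1.12 to 0.08. There were 5 upregulated DEGs without I.P. mouse 2, 3 without I.P. mouse 3 and 1 without I.P. mouse 4. The 17 AP-1 factors had medians of 0.89 with 4 mice and -0.09 without mouse 1. They held 1 upregulated DEG with 4 mice, where 1.53% of all genes were, and 0 of 16 tested without mouse 1. All 4 I.P. mice were above both DMSO mice in 3 of the 17, where this held for 7.29% of all genes. Fosb, an AP-1 subunit, was at 1.91 and 0.866 CPM in the DMSO mice and at 69, 0.551, 1.18 and 0.9 CPM in I.P. mice 1 to 4. Its log2 fold change was 3.69 ± 2.11 with 4 mice and -0.65 ± 0.68 without mouse 1. Klf4 was at 3.95 and 6.76 CPM against 148, 4.16, 4.03 and 8.1 CPM, with log2 fold changes of 2.92 ± 1.61 and 0.0038 ± 0.45.

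Mouse 1 likewise set the fold changes of Il1b, Cxcl1 and Cxcl2. Il1b had log2 fold changes of 2.90 ± 1.90 and -0.79 ± 0.67 with and without mouse 1, Cxcl1 3.52 ± 2.01 and -0.53 ± 0.56, and Cxcl2 2.88 ± 1.60 and -0.11 ± 0.31. None was a DEG in either comparison. Tnf, at 41.3 and 25.6 CPM in the DMSO mice and at 219, 26.4, 53.6 and 98.8 CPM in the I.P. mice, kept a positive log2 fold change of 0.82 ± 0.48 without mouse 1 (1.56 ± 0.75 with it) and was not a DEG either. Id3 was a DEG with 4 mice only. In the S.C. mice, these genes were above I.P. mice 2 to 4, at levels that were above that of I.P. mouse 1 for some and below it for others. Klf4 was at 48.4 and 27.5 CPM in S.C. mice 1 and 2 against 148 CPM in I.P. mouse 1, Id3 at 15 and 15 CPM against 44.9 CPM and Tnf at 123 and 116 CPM against 219 CPM. Il1b was at 247 and 378 CPM against 226 CPM and Cxcl1 at 106 and 149 CPM against 152 CPM. Fosb was at 54.6 and 28.3 CPM against 69 CPM, Cxcl2 at 440 and 470 CPM against 604 CPM, Nr4a1 at 258 and 271 CPM against 163 CPM in I.P. mouse 1, and Dusp2 at 94.1 and 68.4 CPM against 96.3 CPM. Over all genes, however, I.P. mouse 1 correlated at 0.853 and 0.848 with the S.C. mice, below its correlation with the DMSO mice (0.878 and 0.897).

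**Figure D5:**
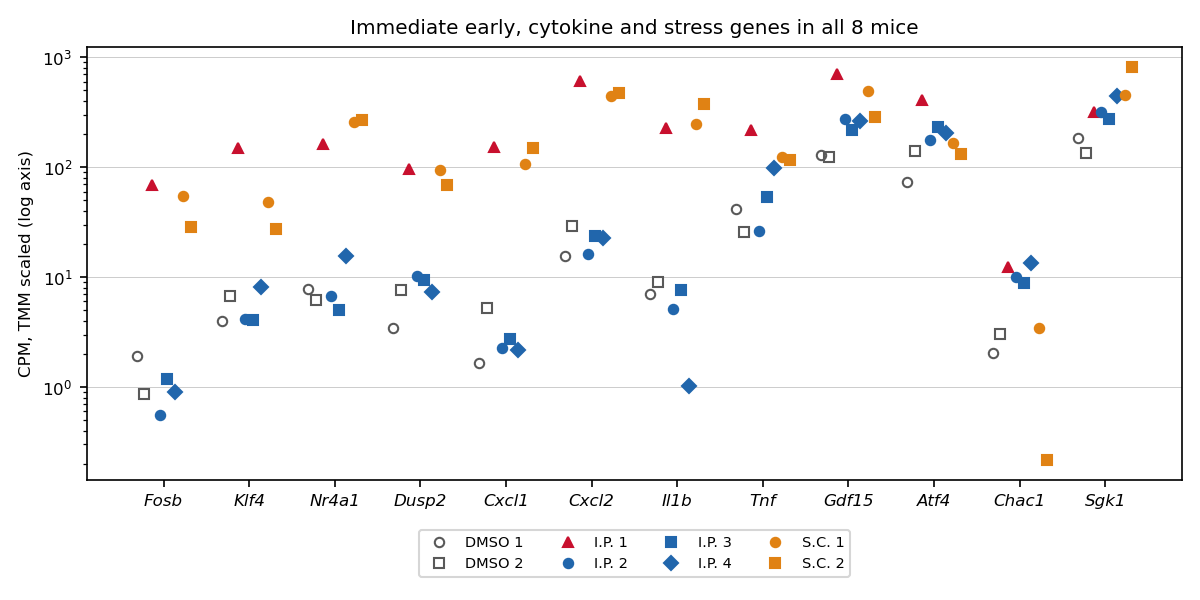
CPM on a log axis of immediate early, cytokine and stress genes in all 8 mice; open grey symbols are DMSO, the red triangle is I.P. mouse 1, blue symbols are I.P. mice 2 to 4 and orange symbols are S.C. mice. From Fosb to Il1b, I.P. mouse 1 and the S.C. mice lie above the other 5 mice, whereas for Chac1 the 4 I.P. mice lie together between 8.74 and 13.4 CPM and above the S.C. mice.

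The 5 genes whose log2 fold change mouse 1 lowered most are given next, and over all genes it was the low outlier in 200. Trim34a, of the TRIM family, was at 22.8 and 11.4 CPM in the DMSO mice and at 0.0632, 8.75, 13.6 and 14.4 CPM in the I.P. mice, and Zfp54, a zinc finger gene, was listed at 0 in mouse 1 and at 4.98 to 8.38 CPM in the other 5 mice. Gvin1, an interferon-inducible GTPase, was at 90.3 and 6.99 CPM against 0.19, 29.1, 8.63 and 73.4 CPM, so the DMSO mice themselves differed widely. Cd300e was at 0 CPM in I.P. mice 1 and 4, and Eif3j1 was at 0 CPM in I.P. mice 1 and 3 and at 53.3 to 56.3 CPM in I.P. mice 2 and 4, with 18 and 52 CPM in the DMSO mice. None of the 5 was a DEG.

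Type I interferon-induced genes had a median of 0.33 with 4 mice and 0.48 without mouse 1 and 0 DEGs of 28. The median was 0.77 and 0.02 without DMSO mice 1 and 2, 0.07 without I.P. mouse 4 and 0.55 without I.P. mouse 2, when 3 were upregulated DEGs. Ribosomal proteins of the cytosol (0.14 and -0.03, 83 genes), nuclear respiratory chain subunits (-0.0096 and -0.09, 75 genes) and mitochondrial ribosomal proteins (-0.10 and -0.16, 73 genes) also held 0 DEGs. For the cytosolic ribosomal proteins the median was -0.20 without DMSO mouse 1 and 0.66 without DMSO mouse 2, when 2 were upregulated DEGs. Glycolysis and hypoxia genes held 0 DEGs of 30, with medians of -0.17 and -0.12.

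Setting the I.P. mice against the S.C. mice asks whether the drug given next to the tumor went with other levels of the genes above. The study's tumor experiments used a lower dose for S.C. than for I.P. injection, and the doses of the sequenced mice were not given, so route and dose cannot be told apart. By edgeR's quasi-likelihood test 566 of 12206 genes were DEGs higher in I.P. TAMs (4.64%) and 294 lower (2.41%), with 0 at an adjusted p under 0.05, 1049 at an unadjusted P under 0.05 and 234 with an adjusted p under 0.05 by DESeq2. Without I.P. mouse 1 the counts were 548 and 374, with 2 at an adjusted p under 0.05. Without S.C. mouse 1 the counts were 1276 and 727, with 71 at an adjusted p under 0.05, and without S.C. mouse 2 they were 1426 and 689, with 138. Of the named downregulated genes, Ccr2 was at 59.5 and 76.1 CPM in the S.C. mice, a log2 difference of I.P. from S.C. of -2.37 ± 0.40 (-2.35 without I.P. mouse 1). Mgl2 was at 33.5 and 29.8 CPM (-1.87 ± 0.41, and -1.68 without I.P. mouse 1), Ppbp at 48.4 and 68.5 CPM (-2.05 ± 0.32 and -2.22) and Hspa1b at 370 and 848 CPM (-2.72 ± 0.52 and -2.55). Both S.C. mice were above all 4 I.P. mice in these, in Dok2 and in Gja1, which are 6 of the 10 named downregulated genes. In the other 4 the mice overlapped. F13a1 was at 325 and 647 CPM (0.43 ± 0.36), Tmem2 at 9.09 and 36.8 CPM (-0.37 ± 0.53), Olfm1 at 23.1 and 50.1 CPM (-0.19 ± 0.40) and Abca9 at 1.38 and 33.9 CPM (-0.93 ± 0.89), none of them a DEG. Of the upregulated genes, Chac1 was at 3.43 and 0.217 CPM in the S.C. mice (2.56 ± 0.95). Its log2 difference was 5.61 without S.C. mouse 1, 1.66 without S.C. mouse 2 and 2.5 without I.P. mouse 1, when it was no longer a DEG. Trib3 was at 21.3 and 8.96 CPM (1.90 ± 0.56, and 1.40 to 2.67 with 1 mouse left out), Osgin1 at 12.3 and 14.6 CPM (1.43 ± 0.43, and 1.14 without I.P. mouse 1) and Fkbp5 at 4.55 and 9.46 CPM (3.08 ± 0.63 and 2.72). Both S.C. mice were below all 4 I.P. mice in 5 of the 10 named upregulated genes and overlapped with them in the other 5. Smpdl3a, Tnfsf13 and 1300002K09Rik were not DEGs between I.P. and S.C. TAMs. The S.C. mice were at 410 and 545 CPM for Smpdl3a and at 44.9 and 48.5 CPM for Tnfsf13, within the range of the I.P. mice.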

How the data were processed

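RNA-seq counts of TAMs from 4 I.P. thiostrepton mice, 2 DMSO mice and 2 S.C. mice were used, with 1 library per mouse, grouped by their labels. The counts were deposited by the authors as whole numbers per gene symbol, without normalization. The study's methods name bowtie2 and RSEM, and the submitters' processing notes also name TopHat2 and edgeR. The genome build is mm10. How reads shared by paralogs were counted is not given in the sources used here.

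The software was edgeR 4.0.16 and DESeq2 1.42.0 under R 4.3.3. Genes were kept by filterByExpr (minimum count 10, minimum total 15), scaled by TMM and tested by quasi-likelihood F tests (two-sided), with Benjamini-Hochberg adjustment over all genes tested. Standard errors were taken as the log2 fold change over the square root of F. A total of 56 gene lists were described by counts and medians. The named genes were up to 10 per direction with the smallest P among non-overlapping DEGs with and without I.P. mouse 1, the 5 genes per direction that mouse 1 moved most, up to 4 per list and a set of activation markers. A gene that this rule names is not reported here. The members and lists were chosen with earlier results of these data known. The tests were checked on simulated counts. Gene positions and promoters came from RefSeq (GRCm38.p6), in which 99.3% of 23413 symbols had 1 position.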

Additional observations from a re-analysis of the deposited data

Results flagged for a closer look

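A sample was set apart where its gap to the nearest I.P. mouse, divided by the range of the 4 I.P. mice, exceeded Dixon's 95% critical value. For normally spread values, chance alone sets apart about 1 in 20 groups, and the CPM of the genes were not put on a log scale. Of 99 named genes tested, 14 had such a mouse, and in 12 of them it was I.P. mouse 1. Some of these genes were named because mouse 1 moved them most, so these counts are a description and are not set against chance. Over all genes tested, mouse 1 was outlying in 691 (5.68%). Its values were 705 CPM for Gdf15, 22.8 CPM for Per1, 10.6 CPM for Ccl24, 148 CPM for Klf4, 604 CPM for Cxcl2, 226 CPM for Il1b, 152 CPM for Cxcl1, 69 CPM for Fosb, 163 CPM for Nr4a1, 96.3 CPM for Dusp2, 44.9 CPM for Id3 and 6.51 CPM for Retnla, each the highest of the 4. I.P. mouse 4 stood apart for Tm4sf19 (35.8 CPM) and I.P. mouse 3 for Cd300e (20.6 CPM).

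Of 56 gene lists, 4 had an outlying mouse in their mean log2 CPM. I.P. mouse 1 was low for endoplasmic reticulum chaperones (7.22) and for Toll-like receptors and adaptors (4.8), I.P. mouse 4 was high for sterol synthesis and LXR targets (4.98), and I.P. mouse 3 was apart from the rest for the prostaglandin and leukotriene pathway (4.45).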

How the results depend on the processing

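No gene passed an adjusted p of 0.05 in I.P. against DMSO under the other filters, scalings, the fit of all 3 groups or any left-out mouse. The likelihood ratio test of edgeR passed 10 and DESeq2 26, and 18 and 33 without I.P. mouse 1. DESeq2 passed 234 in I.P. against S.C. With no filter on low counts 114 genes were downregulated DEGs, and with all 3 groups in 1 fit 117 were upregulated and 250 had an unadjusted P under 0.05. Of 53 named DEGs, every one stayed a DEG with no filter, with the stricter filter, with RLE size factors and with the likelihood ratio test. Sqstm1 and C2 were lost with library size only, Id3 and Beta-s with DESeq2, and Abca9, Ccl24, Vsig4, Hpgd and C2 with all 3 groups in 1 fit. With library size only, the log2 difference of I.P. from S.C. turned to 0.09177 for 1300002K09Rik and 0.03279 for Tnfsf13. The cause was not tested.

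Same-numbered mice share only a number. The deviations of the 2 pairs correlated at -0.112 and 0.031. With the replicate block, 152 genes were upregulated and 178 downregulated DEGs, the log2 fold change of Pf4 was 0.2626, and Ccl24, Ptger2, Hpgd and C2 were not DEGs.

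Leaving out each of the 6 mice gave 76 to 282 upregulated and 40 to 109 downregulated DEGs, and 141 to 525 genes at an unadjusted P under 0.05. Of the 53 named DEGs, 33 remained without DMSO mouse 1, 32 without DMSO mouse 2, and 44, 51, 49 and 44 without I.P. mice 1, 2, 3 and 4. With I.P. mouse 1 out, the ranges were 80 to 275, 46 to 158 and 248 to 717, with 0 to 1 gene at an adjusted p under 0.05. Against S.C. they were 407 to 1426, 194 to 727 and 689 to 2347, with 0 to 138. The log2 fold change over DMSO ran from -2.74 to 0.2899 for Ccl24, -2.048 to 0.3423 for H2-Ab1, -0.1067 to 3.426 for Cxcl2, -0.791 to 3.314 for Il1b, -0.5275 to 4.612 for Cxcl1, -0.6506 to 4.367 for Fosb, -1.936 to 1.968 for Gvin1, -5.777 to 1.243 for Cd300e, -1.011 to 0.5829 for Eif3j1, -0.5101 to 2.487 for Retnla, -0.06085 to 0.6445 for Vegfa, -0.4609 to 1.168 for Tgfb1, -0.7179 to 0.7142 for Pf4 and -0.5723 to 0.08677 for Ptprc. The log2 difference from S.C. ran from -0.1189 to 0.2769 for Smpdl3a, -0.1948 to 0.02831 for Tnfsf13 and -0.4238 to 0.6052 for 1300002K09Rik. Genes near the floor of 3 counts carry wide errors at this depth.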

Other observations

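Other lists of macrophage functions held few DEGs. With 4 mice and without I.P. mouse 1, the median log2 fold change was 0.20 and 0.14 for 24 BCL2 family and death genes, 0.13 and 0.08 for 17 checkpoint ligands and costimulatory molecules, -0.11 and -0.06 for 20 Toll-like receptors and adaptors, and 0.06 and 0.01 for 17 genes of arginine and polyamine metabolism, with 0 DEGs in each. NF-kB inhibitors and feedback regulators, 20 genes that NF-kB induces and that restrain it, also held 0 DEGs and went from 0.32 to 0.11. Their median was 0.53 without DMSO mouse 1 and 0.49 without I.P. mouse 2, when 4 were upregulated DEGs. Fc receptors and phagocytic signaling genes (21 tested) had medians of 0.03 and 0.06, matrix metalloproteinases and their inhibitors (19 tested) 0.16 and 0.06, and purinergic receptors and ectonucleotidases (14 tested) 0.12 and 0.13. The first held 0 DEGs with 4 mice and 1 without mouse 1 (Mertk), the second 1 downregulated DEG in both (Serpinb2) and the last 1 downregulated DEG with 4 mice only (Gpr34), named after their values were seen. The median of the metalloproteinase list was -0.15 without DMSO mouse 1 and -0.14 without I.P. mouse 4. Without DMSO mouse 2, the checkpoint list had a median of -0.05 and the Fc receptor list one of -0.17.

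Markers of other cell types that the sort could have carried over differed widely in their sums. Melanocyte, platelet, monocyte and erythroid markers, given above, reached 1900, 2430, 775 and 590 CPM in single mice. Of the 2430 CPM of platelet markers, in DMSO mouse 2, Pf4 made up 2300 CPM. Neutrophil markers summed to 187 and 199 CPM in the DMSO mice and to 139 to 196 CPM in the I.P. mice, and B cell markers to 194 and 144 CPM against 136 to 203 CPM. Endothelial markers summed to 6.54 and 5.08 CPM against 8.53 to 13.1 CPM, fibroblast markers to 1.91 and 5.25 CPM against 2.65 to 5.94 CPM, epithelial markers to 3.34 and 1.79 CPM against 1.74 to 10.6 CPM, and mast cell and basophil markers to 1.36 and 1.15 CPM against 0 to 1.9 CPM. Of the 12 mast cell and basophil genes, 9 were at 0 in all 6 mice. The part of these cells in the results was not tested.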
